A study of Mus musculus with 6 samples.

Results

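MondoA (gene symbol Mlxip), its partner MLX and the factors that bind DNA together with MAX form 1 network of transcription factors, and 10 of the 17759 genes with a value in the deposited tables belong to it: Mlxip, Mlx, Max, Myc, Mxd1, Mxd3, Mxd4, Mxi1, Mnt and Mga. They were chosen by name, as the deleted gene, its partner and the known members of the MAX network, and were found by the NCBI gene number that the tables give. All 10 were listed in every library and all passed the filter on low counts, with 215 to 7466 counts per library.

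RNA sequencing measured regulatory T (Treg) cells of C57BL/6 mice aged 8 weeks, in 6 groups of 1 library each. Knockout (KO) mice carried a floxed Mlxip gene, MondoAfl/fl, and Foxp3Cre, and wild-type (WT) mice carried Foxp3Cre with intact Mlxip, MondoA+/+, so that Cre was present in both genotypes. Each genotype gave stimulated nTreg, iTreg and resting nTreg cells. Resting nTreg cells were sorted from spleen and lymph nodes as CD4+CD25hiYFP+ cells. Stimulated nTreg cells were sorted Tregs that spent 48 hours on plates coated with anti-CD3 (5 μg/ml), in medium with anti-CD28 (2 μg/ml) and IL-2 (100 U/ml). The iTreg cells were sorted as YFP-negative naive CD4 T cells and polarized for 4 days. Foxp3Cre is designed to act in cells that express Foxp3, and the iTreg cells were sorted as YFP-negative. When deletion took place in the iTreg cultures was not measured. Which exons the floxed allele removes is not stated, and nothing says that libraries derive from different animals or cultures. The p-values therefore measure only the spread of these samples around an additive model of state and genotype. That spread holds any genotype effect that differs between states, and the rest may be technical.

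MYC, MondoA and their relatives are basic helix-loop-helix leucine zipper proteins, which bind DNA in pairs at E-boxes, short sites of the form CACGTG and its variants. MYC paired with MAX activates genes of growth and metabolism, while the MXD proteins, MNT and MGA compete for MAX and repress such genes, MXD proteins and MNT by bringing in the SIN3-HDAC corepressor and MGA within the Polycomb complex PRC1.6. MondoA pairs with MLX, which can also pair with MXD1, MXD4 and MNT, and it carries the response to glucose 6-phosphate to genes such as Txnip and Arrdc4. In T cells, activation through the antigen receptor is known to raise Myc.

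The promoters of 4 genes are shown because they hold letters of the kind the network binds: those of the MondoA targets Txnip and Arrdc4, and those of Mxd4 and Mnt, members that were lower in activated or polarized cells. Each is the 250 bases upstream of the annotated start, 5′ to 3′ on the gene's strand, from RefSeq on build GRCm38.p6, while the deposited values were made with mm9. Capitals mark CACGTG and CACGAG, searched on both strands (CTCGTG is the reverse complement of CACGAG). The windows are chr3:96557707-96557956 (plus strand), chr7:68749239-68749488 (minus), chr5:34187711-34187960 (minus) and chr11:74830674-74830923 (plus).
Txnip: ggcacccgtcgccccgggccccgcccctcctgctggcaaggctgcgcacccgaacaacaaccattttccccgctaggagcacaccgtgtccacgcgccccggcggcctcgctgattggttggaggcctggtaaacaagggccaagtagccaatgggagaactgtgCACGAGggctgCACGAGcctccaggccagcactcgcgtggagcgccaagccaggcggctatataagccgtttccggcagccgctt
Arrdc4: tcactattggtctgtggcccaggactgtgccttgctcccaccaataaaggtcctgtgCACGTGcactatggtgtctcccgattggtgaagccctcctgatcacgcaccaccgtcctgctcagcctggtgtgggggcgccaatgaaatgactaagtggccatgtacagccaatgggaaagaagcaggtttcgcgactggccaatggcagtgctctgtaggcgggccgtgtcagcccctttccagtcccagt
Mxd4: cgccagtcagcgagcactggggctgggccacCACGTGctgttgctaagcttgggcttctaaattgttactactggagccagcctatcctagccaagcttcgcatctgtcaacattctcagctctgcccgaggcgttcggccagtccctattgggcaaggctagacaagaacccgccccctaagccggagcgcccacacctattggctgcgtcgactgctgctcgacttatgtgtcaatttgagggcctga
Mnt: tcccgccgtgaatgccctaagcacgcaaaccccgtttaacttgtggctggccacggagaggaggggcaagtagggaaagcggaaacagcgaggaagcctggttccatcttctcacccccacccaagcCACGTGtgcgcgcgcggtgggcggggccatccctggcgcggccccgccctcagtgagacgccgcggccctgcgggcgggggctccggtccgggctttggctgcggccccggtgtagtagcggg

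The Txnip window holds CACGAG in 2 places that begin at -85 and -74 from the start, a spaced pair of the kind described for carbohydrate response elements. The Arrdc4 window holds CACGTG at -193. Of the 10 network genes 9 had a promoter entry, and Mxd4, Mnt and Mlx hold CACGTG at -219, -123 and -40. CACGAG was found in Mxd1 alone among them. CACGTG occurs in 6.02% and CACGAG in 5.37% of all 32851 promoter windows of this length. A match describes these letters only, and neither binding nor regulation was measured.

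The libraries held 9760285 to 10185664 expected counts. Intervals below are exact 95% intervals for counting error only, because each group had 1 library. The KO and WT iTreg libraries differed along gene length: across genes, the log2 KO over WT fold fell with transcript length (Spearman's rho -0.56 over 10214 genes, against -0.13 in stimulated and -0.18 in resting cells), so iTreg values are also given with that trend removed. All 8 Treg markers were detected in every library at a summed 4620 to 6278 normalised CPM, a gene's count relative to the TMM-scaled size of its library. With no library of other cells to compare, this does not test the cell label. Foxp3, the lineage factor of Treg cells, differed between KO and WT by log2 values of 0.06, -0.03 and 0.04 in stimulated, iTreg and resting cells. Summed CPM of the 6 B cell markers, all detected everywhere, were 40.1, 42.8 and 106 in KO stimulated, iTreg and resting cells, against 29.7, 10.9 and 61.7 in WT cells of the same states, and their part in the results was not tested. The 5 markers of CD8 T and NK cells summed to 66.2, 204 and 28.4 in KO cells, against 54.7, 112 and 39.5 in WT cells, with Ncr1 at 0 in both iTreg libraries, and the 4 erythroid markers to 2.15, 1.64 and 5.804 in KO cells, against 1.71, 0.612 and 35.1 in WT cells. In bulk samples, fewer cells of a type and less RNA per cell cannot be told apart.

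Mlxip had 852, 690 and 1130 counts in KO stimulated, iTreg and resting cells, against 1510, 1640 and 1431 counts in WT cells of the same states. Every KO library lay under every WT library, and the KO libraries were spread more widely among themselves than the WT libraries. The KO cells kept 57.4% of the WT level in stimulated cells, 42.3% in iTreg cells and 75.5% in resting cells, as ratios of normalised CPM. The log2 folds were -0.80 (interval -0.92 to -0.68), -1.24 (-1.37 to -1.11) and -0.40 (-0.52 to -0.29), and -0.79, -0.73 and -0.29 with the length trend removed. The deposited Mlxip length, an average over its 2 listed transcripts, was 6862, 7216 and 7292 bases in the KO libraries and 7013, 6939 and 7183 bases in the WT libraries, with no common order of the genotypes. Since the deleted exons are not stated, the counts can include reads from outside them.

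Mlx, which encodes the obligate partner of MondoA, had 25.3, 26.1 and 21.2 FPKM (a level scaled to transcript length and library total) in KO stimulated, iTreg and resting cells, against 26.6, 23.0 and 21.7 FPKM in WT cells. This was the narrowest range of the 10 genes, with the highest library at 1.26 times the lowest. Counting intervals of the log2 fold held 0 in stimulated cells (-0.20 to 0.17) and resting cells (-0.28 to 0.13). In iTreg cells the KO value was higher by 0.27 (0.08 to 0.46), and by 0.03 with the length trend removed. The FPKM ratio of Mlxip to Mlx was 0.476, 0.357 and 0.727 in KO stimulated, iTreg and resting cells, against 0.797, 1.04 and 0.927 in WT cells, so that every KO ratio lay under every WT ratio, as Mlxip itself did.

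The MondoA targets were also lower. Txnip, an arrestin-like protein that restrains glucose uptake, had 8.31, 24.9 and 152 FPKM in KO stimulated, iTreg and resting cells, against 49.6, 108 and 548 FPKM in WT cells. Arrdc4, its paralog, had 0.27, 1.19 and 1.67 FPKM in the KO libraries, against 3.60, 14.3 and 10.4 FPKM in the WT libraries. These Arrdc4 values rest on few counts, 5, 25 and 27 in the KO libraries against 103, 388 and 159 in the WT libraries. Txnip and Mlxip were ordered differently over the states, since Txnip was lowest in stimulated cells of both genotypes while WT Mlxip stayed between 20.1 and 23.9 FPKM. With a log2 fold of -3.73 (SE 0.24), the drop of Txnip in stimulated against resting cells passed in the edgeR quasi-likelihood test (adjusted p = 6.34e-06).

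Close relatives of the members had 0 to 16 counts per library, and only Mlxipl stayed at or under the floor of 3 counts throughout. Mlxipl, which encodes ChREBP, the MondoA paralog of liver and fat, had 0, 2 and 1 counts in KO stimulated, iTreg and resting cells, against 2, 3 and 1 counts in WT cells. Mycn had 16, 5 and 0 counts in the KO libraries, against 7, 3 and 2 counts in the WT libraries, and Mycl had 4, 1 and 9 counts, against 5, 0 and 9 counts. Mlxip and Myc were thus the members of their families with more than 16 counts in these cells.

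**Figure D1:**
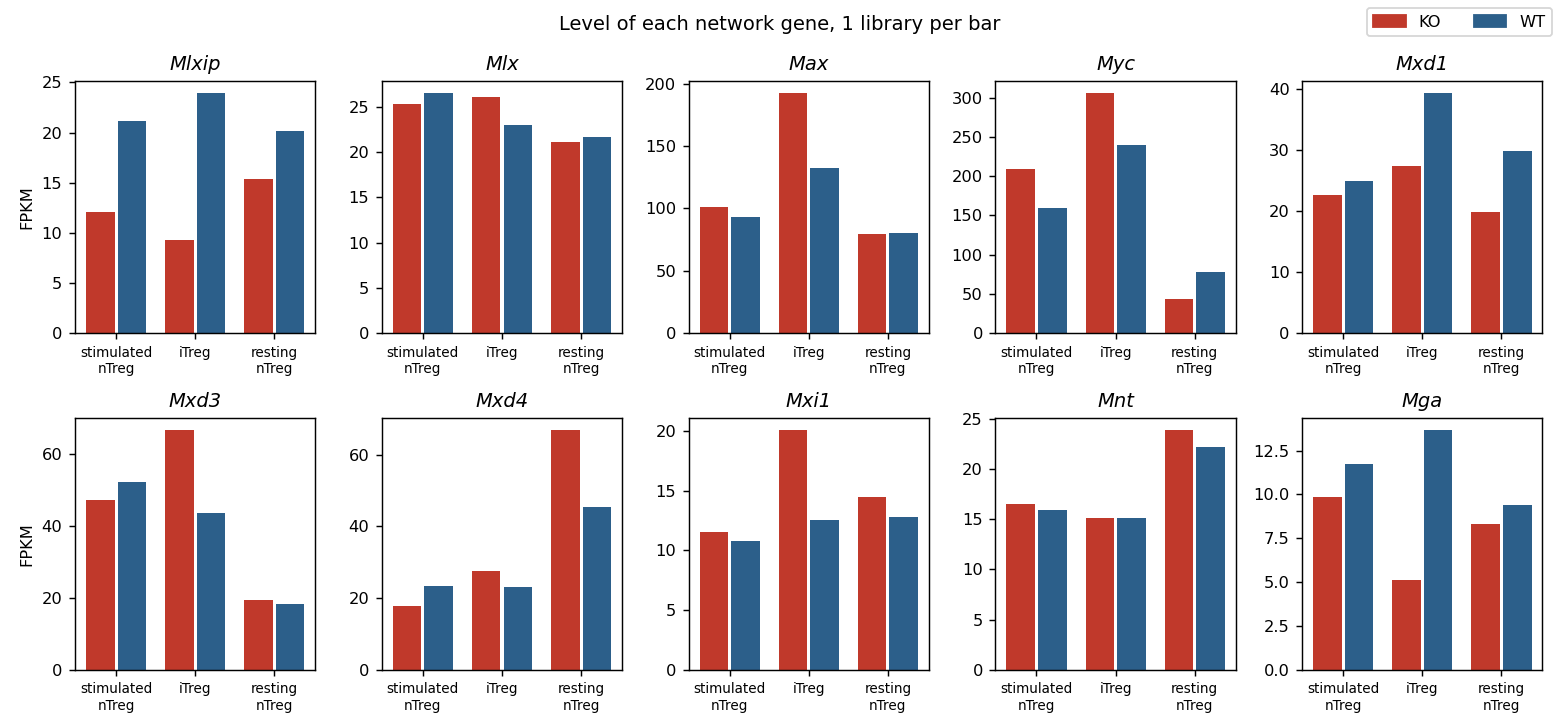
FPKM (vertical axis, a separate linear scale in each panel) of the 10 network genes in stimulated nTreg, iTreg and resting nTreg cells; each bar is 1 library, KO in red and WT in blue. Mlxip is lower in KO in all 3 states, and Myc and Mxd3 are lowest in resting cells while Mxd4 and Mnt are highest there.

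Max encodes the shared partner of MYC, the MXD proteins, MNT and MGA. Max had 101, 193 and 79.7 FPKM in KO stimulated, iTreg and resting cells, against 93.1, 132 and 80.3 FPKM in WT cells. Both iTreg libraries were above all others, and the 2 resting libraries were nearly level and lowest. The log2 KO over WT fold was 0.16 (0.07 to 0.26) in stimulated cells, 0.61 (0.53 to 0.68) in iTreg cells, where it was 0.40 with the length trend removed, and -0.05 (-0.15 to 0.05) in resting cells.

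Myc, the growth-promoting proto-oncogene, had 209, 306 and 43.1 FPKM in KO stimulated, iTreg and resting cells, against 160, 240 and 78.1 FPKM in WT cells. The 4 stimulated and iTreg libraries were all above both resting libraries, and the KO library was the higher of its pair in stimulated and iTreg cells and the lower in resting cells. The log2 folds were 0.44 (0.37 to 0.50), 0.41 (0.36 to 0.46) and -0.90 (-1.01 to -0.79). They had the same signs with the length trend removed, at 0.42, 0.30 and -0.93. In the model of both genotypes these opposite values gave a shared effect near 0 (log2 fold -0.0046, SE 0.26, adjusted p = 0.996). No test of the difference between the states is possible with 1 library per group.

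Mxd1, a repressor known to come on in differentiating cells, had 22.6, 27.4 and 19.8 FPKM in KO stimulated, iTreg and resting cells, against 25.02, 39.4 and 29.9 FPKM in WT cells. Each KO library was under the WT library of its state, though the groups overlapped across states. The log2 folds were -0.10 (-0.22 to 0.02), -0.46 (-0.56 to -0.36) and -0.63 (-0.75 to -0.51), and -0.10, -0.23 and -0.59 with the length trend removed.

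Mxd3, the MXD member known to be expressed in S phase of proliferating cells, had 47.3, 66.7 and 19.3 FPKM in KO stimulated, iTreg and resting cells, against 52.2, 43.6 and 18.2 FPKM in WT cells. The resting libraries were the lowest, well apart from the other 4. Counting intervals of the KO over WT fold held 0 in stimulated (-0.26 to 0.06) and resting cells (-0.22 to 0.31), and the iTreg value was 0.67 (0.52 to 0.83), or 0.31 with the length trend removed.

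Mxd4, a repressor known from quiescent and differentiated cells, had 17.9, 27.7 and 67.0 FPKM in KO stimulated, iTreg and resting cells, against 23.5, 23.1 and 45.3 FPKM in WT cells. Both resting libraries were above the other 4, and the KO resting library was the highest of all. The log2 folds were -0.34 (-0.61 to -0.09) in stimulated cells and 0.52 (0.36 to 0.69) in resting cells. The iTreg value was 0.32 (0.09 to 0.57) and turned to -0.06 with the length trend removed. Resting cells therefore showed the reverse of Myc, with Mxd4 higher and Myc lower in the KO library.

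Mxi1, also called MXD2, had 11.6, 20.1 and 14.4 FPKM in KO stimulated, iTreg and resting cells, against 10.8, 12.6 and 12.8 FPKM in WT cells. The KO iTreg library stood above the other 5. Its log2 fold against the WT iTreg library was 0.74 (0.60 to 0.89), and 1.03 with the length trend removed, since Mxi1 is long (mean length 5111 bases) and long genes were generally lower in that library. Counting intervals held 0 in stimulated (-0.03 to 0.31) and resting cells (-0.02 to 0.29).

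Mnt, the broadly expressed MAX partner that opposes MYC, had 16.5, 15.1 and 23.9 FPKM in KO stimulated, iTreg and resting cells, against 15.9, 15.2 and 22.2 FPKM in WT cells. The genotypes were nearly level in each state, with log2 folds of 0.09, 0.06 and 0.07 whose intervals all held 0, and the 2 resting libraries were the highest. With the length trend removed the iTreg value was 0.28.

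Mga, the only member with a T-box DNA-binding domain beside its helix-loop-helix domain, had 9.85, 5.09 and 8.29 FPKM in KO stimulated, iTreg and resting cells, against 11.7, 13.7 and 9.39 FPKM in WT cells. The KO library was lower in each state, and the KO iTreg library stood apart below the others. The log2 folds were -0.20 (-0.31 to -0.10), -1.40 (-1.52 to -1.27) and -0.22 (-0.34 to -0.11). Mga has the longest transcript of the members (mean length 13828 bases), and with the length trend removed the folds were -0.17, -0.44 and -0.04.

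Among the 10 genes, 0 were at least 2-fold apart between KO and WT in stimulated cells, where this held for 1.06% of 10142 genes with at least 50 counts in the higher library. In iTreg cells 2 of 10 were, Mlxip and Mga, both lower in KO, beside 5.25% of 10214 genes lower and 7.9% apart in either direction. With the length trend removed neither was, and Mxi1 alone was. In resting cells 0 of 10 were, beside 2.87% of 10324 genes. The interval of the ratio left out 1 for 5 of 10 genes in stimulated cells (31.8% of all genes), 9 of 10 in iTreg cells (69.4%) and 5 of 10 in resting cells (45.9%). Counting intervals narrow with more counts, and the members had 215 to 7466 counts per library. These shares of all genes were not matched for counts. The median absolute log2 fold of the members was 0.15, 0.53 and 0.18 in stimulated, iTreg and resting cells, beside 0.13, 0.37 and 0.18 over all genes. By this median the members as a group lay close to the background in nTreg cells. Neither the iTreg median nor the iTreg count of intervals was computed with the length trend removed. With that trend removed the iTreg folds of Mxi1 and Mnt grew in size, and those of the other members shrank.

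**Figure D2:**
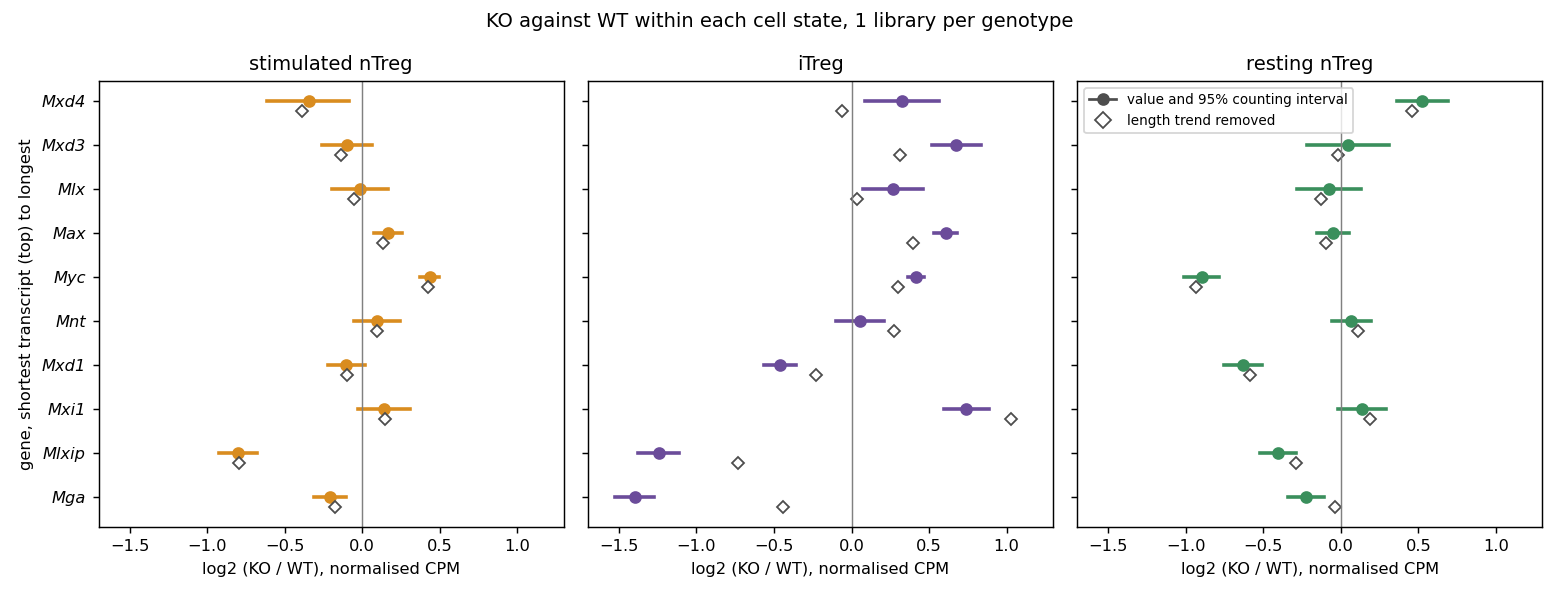
Log2 KO over WT of normalised CPM (horizontal axis) for each network gene within each cell state, ordered from the shortest transcript to the longest. Filled circles are the value with its 95% counting interval and open diamonds the value with the length trend removed; Myc lies right of 0 in stimulated and iTreg cells and left of 0 in resting cells, and Mlxip lies left of 0 throughout.

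A difference between KO and WT common to the 3 states was tested in an additive model of state and genotype over all 6 libraries, with 2 residual degrees of freedom. By the edgeR quasi-likelihood test with Benjamini-Hochberg adjustment, 0 of the 10 members passed an adjusted p of 0.05, where 0.171% of 12848 genes passed. At an unadjusted p under 0.05 there were 3 members and 1019 genes, and DESeq2 called Mlxip and 67 genes in all. Mlxip gave -0.82 (SE 0.18, adjusted p = 0.239), lower in 3 of 3 states. Without the KO resting library, where its difference was smallest, it was -1.04 (adjusted p = 0.00464), without the WT resting library it was -1.02 (adjusted p = 0.00537), and DESeq2 gave -0.83 (adjusted p = 0.0181). The 2 fits without a resting library both rest on the stimulated and iTreg pairs, so they are not separate checks. Txnip fell by 2.15 on the log2 scale (SE 0.19, adjusted p = 0.00171) and the log2 fold of Arrdc4 was -3.50 (SE 0.33, adjusted p = 0.00282).

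Mga had a shared value of -0.60 (SE 0.23, adjusted p = 0.617) and Mxd1 of -0.40 (SE 0.16, adjusted p = 0.617), and both were lower in KO in 3 of 3 states. The Mga value rested largely on iTreg cells, being -0.22 without either iTreg library and with the length trend removed, closer to 0 than that of Mxd1 in each of these fits. Mxi1 had 0.34 (SE 0.17, adjusted p = 0.619), higher in 3 of 3, and 0.14 without either iTreg library. Max had 0.24, Mxd3 0.21, Mxd4 0.18, Mnt 0.07 and Mlx 0.06, with adjusted p between 0.681 and 0.911. A difference that misses the threshold with 2 residual degrees of freedom does not show that a gene was level.

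Stimulation was compared with rest over both genotypes in the same model. Myc rose by 1.69 on the log2 scale (SE 0.32, adjusted p = 0.00252) and Mxd3 by 1.49 (SE 0.23, adjusted p = 0.000779), while Mxd4 fell by 1.33 (SE 0.24, adjusted p = 0.00185), by the edgeR quasi-likelihood test. These 3 of 10 members passed, 2 higher and 1 lower, where 46.4% of 12848 genes passed, 24.1% higher and 22.3% lower. The 3 calls held in all 13 alternative fits run for each of them, though these fits overlap and are not separate checks. The size of the Myc change did not hold: it was 1.08 without the KO resting library and 2.402 without the WT resting library. Mnt gave -0.43 (adjusted p = 0.0684), Mlx 0.40 (0.108), Mga 0.38 (0.299) and Max 0.35 (0.194). These 4 passed without the KO iTreg library, without the WT iTreg library and with only the 4 nTreg libraries, when 7 of 10 members passed. Mnt also passed with the length trend removed (-0.47, adjusted p = 0.0238) and with both limma fits to FPKM (adjusted p = 0.0417 and 0.0405), and so in 6 of 13 alternatives. These are not 6 separate checks, since the fits that leave out iTreg libraries are nearly the same fit, as are the limma fits. Mlxip gave -0.13 (adjusted p = 0.653), Mxi1 -0.19 (adjusted p = 0.469) and Mxd1 0.05 (adjusted p = 0.845), each smaller in size than its SE.

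The iTreg cells, which differ from resting nTreg cells in origin as well as in culture, showed the same 3 calls and 2 more. Myc rose by 2.25 (SE 0.33, adjusted p = 0.000534), Mxd3 by 1.62 (SE 0.23, adjusted p = 0.000474) and Max by 1.08 (SE 0.21, adjusted p = 0.00284). Mxd4 fell by 1.06 (SE 0.24, adjusted p = 0.00544) and Mnt by 0.53 (SE 0.17, adjusted p = 0.0299). Thus 5 of 10 members passed, where 47.7% of genes did, 23.9% higher and 23.8% lower. Both state comparisons use the resting libraries, so their agreement is not independent. With only the 4 resting and iTreg libraries, Mnt gave -0.53 and did not pass in edgeR (adjusted p = 0.0730). Mxd4 did not pass without the KO resting library (-0.74, adjusted p = 0.105), when 3 members were left, and Mnt did not pass without either resting library (adjusted p = 0.260 without KO, 0.199 without WT) or either stimulated library (0.0778 without KO, 0.0757 without WT).

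The remaining members did not pass in iTreg against resting cells. Mxd1 gave 0.51 (adjusted p = 0.0554) and passed without the KO iTreg library (0.55, adjusted p = 0.0490), while Mxi1 gave 0.32 (0.230) and passed without the WT iTreg library (0.62, adjusted p = 0.0135). Mlx gave 0.30 (0.222) and Mlxip -0.19 (0.513). Mga gave 0.04 (adjusted p = 0.924), which averages libraries on either side of the resting level: it was 0.59 (adjusted p = 0.0218) without the KO iTreg library and -0.59 (adjusted p = 0.0204) without the WT iTreg library.

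Stimulated nTreg cells were also set against iTreg cells, where 14.4% of genes passed, 6.81% lower in stimulated cells. Of the 10 members 1 passed: Max fell by 0.72 (SE 0.21, adjusted p = 0.0491). It did not pass without the KO stimulated (adjusted p = 0.353), WT stimulated (0.170) or KO iTreg library (-0.43, adjusted p = 0.158), and without the WT iTreg library 3 members passed, Max, Mxi1 (-0.81) and Mga (0.97). Myc was -0.56 (SE 0.31, adjusted p = 0.262) and Mxd3 -0.13 (SE 0.22, adjusted p = 0.747), so the order of stimulated and iTreg cells was not resolved for either. Myeloid markers moved with rest: their summed CPM was 3.88 and 7.74 in KO and WT stimulated cells and 1.43 and 1.53 in KO and WT iTreg cells, where Csf1r and S100a8 were at 0, against 124 and 153 in KO and WT resting cells, with all 6 detected. Their part in the state differences was not tested.

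**Figure D3:**
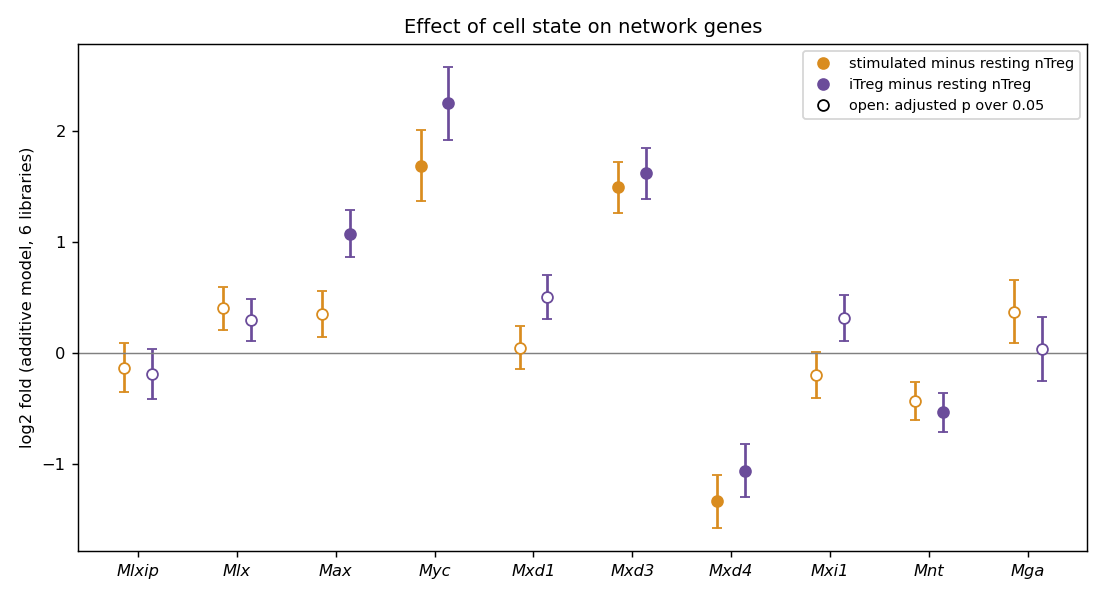
Log2 fold of each network gene (vertical axis, with SE bars from the additive model of 6 libraries) in stimulated (orange) and iTreg cells (purple) against resting nTreg cells; filled points have an adjusted p of at most 0.05. Myc and Mxd3 are above 0 and Mxd4 below 0 in both comparisons, and Max and Mnt are filled in iTreg cells only.

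The balance between Myc and its antagonists is described per library from FPKM, which is per length. Summed FPKM of Mxd1, Mxd3, Mxd4, Mxi1 and Mnt was 116, 157 and 145 in KO stimulated, iTreg and resting cells, against 127, 134 and 128 in WT cells. The sum, which leaves out Mga, thus ran from 116 to 157 FPKM over the 6 libraries. Its makeup changed with state, Mxd3 being its leading gene in stimulated and iTreg cells and Mxd4 in resting cells. The ratio of Myc to this sum was 1.81 (1.73 to 1.89), 1.95 (1.88 to 2.02) and 0.298 (0.278 to 0.319) in the KO libraries, against 1.25 (1.20 to 1.31), 1.79 (1.72 to 1.87) and 0.608 (0.575 to 0.643) in the WT libraries. It was higher in KO than in WT in stimulated and iTreg cells and lower in resting cells. The intervals treat the antagonists as a single pooled count, while FPKM gives short genes more weight, so they understate counting error. For the iTreg pair, whose intervals lie close together, a difference beyond counting error is therefore not shown. The ratio was not computed with the length trend removed.

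Myc made up 44.2%, 44.0% and 13.8% of the summed FPKM of the 10 genes in KO stimulated, iTreg and resting cells, against 36.3%, 42.3% and 23.1% in WT cells. Mxd4 made up 3.78%, 3.98% and 21.5% in KO, against 5.35%, 4.07% and 13.4% in WT. In the 4 stimulated and iTreg libraries the order of levels began with Myc, Max and Mxd3. In resting cells it began with Max, Mxd4 and Myc in KO, and with Max, Myc and Mxd4 in WT. Max to Myc, a ratio of the shared partner to its activating partner, was 0.483, 0.629 and 1.85 in the KO libraries, against 0.583, 0.551 and 1.03 in the WT libraries. Max transcript thus stood well above Myc transcript in the KO resting library alone. In the WT resting library Max and Myc were nearly level, at 80.3 and 78.1 FPKM, and no interval was computed for this ratio.

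**Figure D4:**
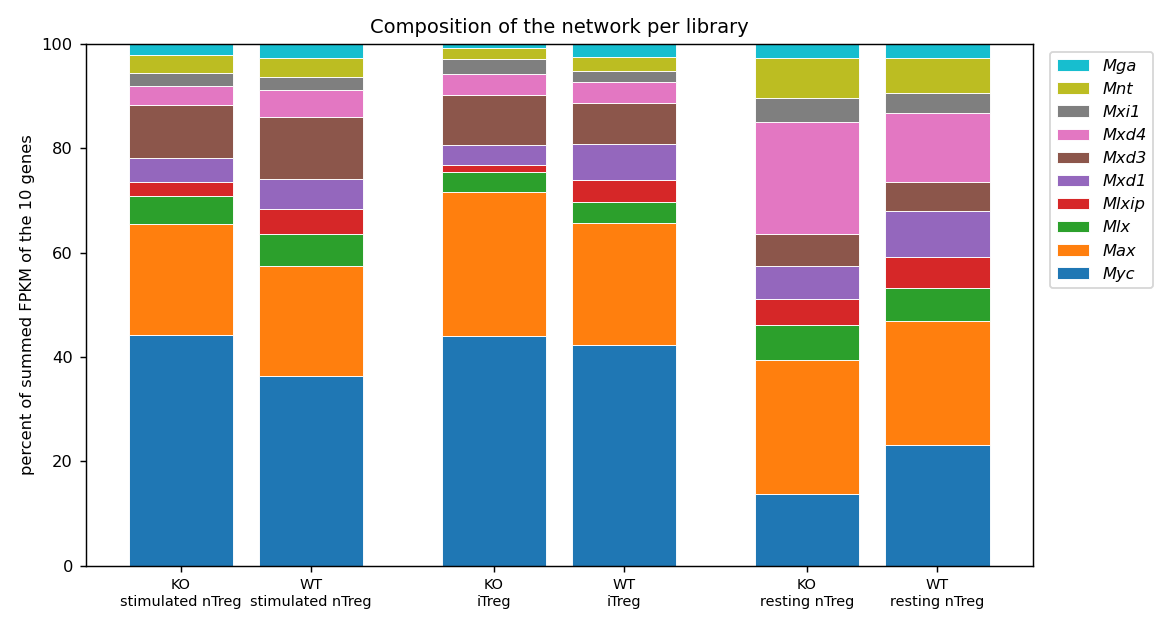
Share of the summed FPKM of the 10 network genes (percent, vertical axis) taken by each gene in each of the 6 libraries, with KO left of WT in each state. Myc takes 13.8% of the KO resting library and 23.1% of the WT resting library, against 36.3% to 44.2% of the others, and Mxd4 is broadest in the KO resting library.

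Genes that MYC is known to activate were followed as a list of 28, covering ribosome assembly, translation, nucleotide and polyamine synthesis and the cell cycle. This list and those below were chosen with earlier results of these data known, so their counts are not an independent check. All 28 rose in stimulated against resting cells (median log2 2.02, beside a median of -0.0047 over all genes tested, of which 24.1% rose), and 26 did without the KO resting library. Examples were Tfrc, the transferrin receptor (3.47, SE 0.33), Rcc1, the exchange factor of RAN (3.07, SE 0.20), Hspd1, a mitochondrial chaperone (2.73, SE 0.23), and Srm, spermidine synthase (2.72, SE 0.25), each with an adjusted p of at most 5.14e-05 in edgeR. In iTreg against resting cells 27 rose and 1 fell (median 1.54), where 23.9% of all genes rose and 23.8% fell, with 24 to 27 rising when single libraries were left out. The gene that fell was Odc1, the first enzyme of polyamine synthesis, named after its value was seen (-0.88, SE 0.21, adjusted p = 0.00688), and it did not pass without the WT resting library. Odc1 was also the list's largest difference between stimulated and iTreg cells (1.87, SE 0.21, adjusted p = 0.000582), where 5 of 28 passed, all higher in stimulated cells, beside 14.4% of all genes in either direction.

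Between the genotypes, 0 of the 28 passed the shared test, which 0.171% of all genes passed (median log2 -0.02, beside 0.02 over all genes), and in single pairs of libraries the list had the sign of Myc in stimulated and resting cells. In stimulated cells 28 of 28 were above 0 (55.9% of all genes were), with values of 0.09 to 0.33 and a median of 0.21. In resting cells 27 of 28 were below 0 (49.2% of all genes were), with a median of -0.42 beside 0.01 over all genes, the lowest being Tfrc at -1.16 and the highest Ldha, lactate dehydrogenase, at 0.07. In iTreg cells, where Myc was higher in KO, 15 were above 0 and 13 below, close to the 54.2% of all genes above 0, with a median of 0.19 beside 0.06 over all genes. With the length trend removed 18 were above 0 and 10 below in iTreg cells, 28 were above in stimulated and 26 below in resting cells, and the medians were 0.19, 0.12 and -0.45 in stimulated, iTreg and resting cells. Tfrc had 389 counts in the KO resting library against 831 in the WT resting library, and Rrp12, a ribosome assembly factor, had 110 against 199. These are values of single libraries with no replicate check. Erythroid markers moved with the resting pair, at a summed 5.804 CPM in the KO library with all 4 detected, against 35.1 CPM in the WT library, and their part in the result was not tested.

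**Figure D5:**
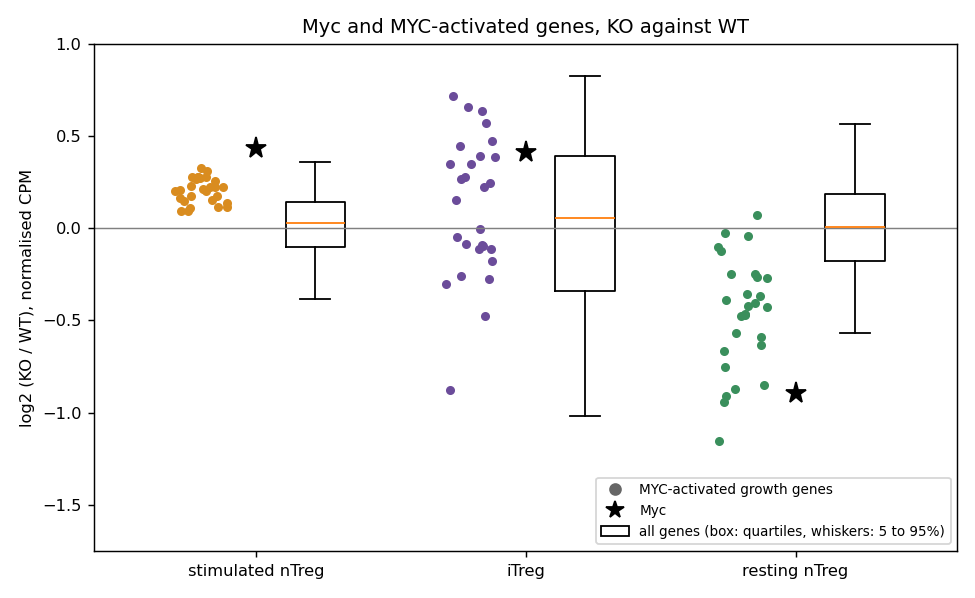
Log2 KO over WT of normalised CPM (vertical axis) of 28 MYC-activated growth genes (points) and of Myc (star) in each cell state, beside all genes with at least 50 counts in the higher library (box: quartiles and median, whiskers: 5th to 95th percentile). The points lie above 0 in stimulated cells, on both sides of 0 in iTreg cells and, but for Ldha, below 0 in resting cells.

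Of 6 genes that MYC is known to repress, 4 fell and 1 rose in stimulated against resting cells (median log2 -0.74), where 22.3% of all genes fell and 24.1% rose. Gadd45a, a stress-response gene, fell by 3.55 (SE 0.28) and Cdkn1b, which encodes the cell cycle inhibitor p27, by 2.00 (SE 0.22), whereas Cdkn1a, which encodes p21, rose by 2.29 (SE 0.19), each with an adjusted p of at most 0.00011 in edgeR. The number that fell was 2 without the KO stimulated library. In iTreg against resting cells 4 fell and 1 rose as well (median -1.33, with 23.8% of all genes falling and 23.9% rising), with Gadd45a at -3.06 and Cdkn1a at 2.78, and 2 rose without the WT iTreg library. Between the genotypes 0 of 6 passed, beside 0.171% of all genes.

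The corepressor through which MXD proteins and MNT act was followed as 15 SIN3-HDAC genes, of which 3 rose and 3 fell in stimulated cells (median log2 -0.21), close to the 24.1% of all genes that rose and 22.3% that fell. Sap30, a subunit of the complex, rose by 2.12 (SE 0.25), Rbbp7, a histone chaperone, by 1.599 (SE 0.21) and Hdac2, a deacetylase, by 0.98 (SE 0.19), while Ing2, a reader of methylated histone H3, fell by 1.07 (SE 0.20). The 3 that fell became 1 without the KO stimulated, the WT stimulated or the WT resting library, and 2 rose and 2 fell without the KO resting library. In iTreg cells 4 rose and 3 fell, again close to the share of all genes (23.9% and 23.8%), with Sap30 at 2.64 (SE 0.25). Both counts lie near the background, and the values describe single subunits. The number that fell was 1 without either stimulated library, 2 without the WT iTreg library and 0 without either resting library, and 2 rose without the KO resting library. Between the genotypes 0 of 15 passed, beside 0.171% of all genes.

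Partners of MGA in PRC1.6 numbered 10, and 6 rose and 1 fell in stimulated cells (median log2 0.71), where 24.1% of all genes rose and 22.3% fell. Tfdp1, the dimer partner of E2F factors, rose by 2.98 (SE 0.21), E2f6, a repressive E2F, by 1.53 (SE 0.21) and Pcgf6, the Polycomb ring finger that defines the complex, by 0.91 (SE 0.21), while Ring1, a ubiquitin ligase subunit, fell by 1.21 (SE 0.21). The number that rose was 3 without the KO stimulated or the KO resting library and 4 without the WT stimulated library, and 2 fell without either iTreg library. In iTreg cells 4 rose and 2 fell, beside 23.9% and 23.8% of all genes, with Tfdp1 at 2.57 (SE 0.20) and Ring1 at -0.91 (SE 0.21), and 1 fell without the KO iTreg or either resting library. Between the genotypes 0 of 10 passed, beside 0.171% of all genes, Mga itself being lower in each KO library.

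MYC cofactors and the enzymes of MYC turnover numbered 15, of which 5 rose and 1 fell in stimulated cells (median log2 0.35). The share that rose was not far above the 24.1% of all genes that did, and 22.3% of all genes fell. Skp2, a ubiquitin ligase subunit that acts on MYC, rose by 3.10 (SE 0.26), and the paired ATPases Ruvbl1 and Ruvbl2 rose by 1.62 (SE 0.19) and 1.37 (SE 0.22), while Usp28, a deubiquitinase that stabilises MYC, fell by 1.31 (SE 0.20). Without the KO resting library 3 rose, and 3 fell without either iTreg library. In iTreg cells 5 rose and 1 fell as well, beside 23.9% and 23.8% of all genes, and Kat2a, an acetyltransferase, was among those that rose (1.06, SE 0.25). There, 8 rose without the KO iTreg library, and 3 rose and 0 fell without the KO resting library. Between the genotypes 0 of 15 passed, beside 0.171% of all genes.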

How the data were processed

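Tests used the expected count of each gene as deposited, an estimated number of reads per the file headers, with no normalisation. They were rounded to whole numbers, and 76% of listed values were whole within 0.005 beforehand. The deposited FPKM, scaled by the authors to transcript length and library size, served for comparing genes and as an alternative scale, and the deposited transcript length gave the length trend. Bowtie2, HISAT and mm9 are named in the submitters' processing notes. The quantifier and strandedness are not given in the sources used here, so reads of overlapping or antisense genes cannot be told apart. Genes that a library does not list were set to 0, and 17711 of 17759 gene numbers were matched to a symbol.

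Counts were scaled with TMM factors (0.961 to 1.06) and tested with edgeR 4.0.16 (R 4.3.3, glmQLFit and glmQLFTest) in an additive model of state and genotype over all 6 libraries, after filterByExpr (at least 10 counts), with Benjamini-Hochberg adjustment over 12848 genes at 0.05. A genotype effect that differs between states counts as error there. Standard errors were derived from the F statistic. Within a state, log2 ratios used a prior count of 2 and exact conditional (Clopper-Pearson) 95% intervals. The length trend was removed with a lowess curve per library (span 0.3). Alternatives used DESeq2 1.42.0, limma 3.58.1, other scaling, no filter, and single libraries left out. The edgeR test of the shared genotype effect was tried on simulated counts.

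The members, lists and tests were chosen with earlier results of these data known. Named were all members, 3 relatives, Txnip, Arrdc4, Foxp3, of each list up to 4 genes with the largest fold and mean log2 CPM over 3, and the 3 genes most like Mlxip and Myc.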

Additional observations from a re-analysis of the deposited data

Results flagged for a closer look

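Myc differed between the genotypes in opposite directions in different cell states. Its log2 KO over WT value was 0.44 in stimulated and -0.90 in resting cells, a gap of 1.33, and 0.41 in iTreg cells, a gap of 1.31 to resting cells. Mxd4 showed -0.34 in stimulated cells against 0.52 in resting cells, a gap of -0.87, and against 0.32 in iTreg cells, a gap of -0.67. The iTreg value of Mxd4 turned to -0.06 with the length trend removed, so the opposite direction was not kept in that pair. In each case the single library pair of a state moved one way and that of the other state the opposite way, and the difference was not tested, since 1 library per group leaves no replicate error.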

How the results depend on the processing

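No paired analysis was possible because each group has 1 library and the labels give no replicate numbers, beyond the comparison of KO with WT within each cell state that the state term of the model makes. With 1 library per group and 215 to 7466 counts per member, comparisons within a state rest on counting intervals alone. The cause of the changes below was not tested. The shared genotype effect called 22 genes, 67 without a filter and with DESeq2, 14 with the length trend removed, 0 with no covariate, 11 and 12 with limma on log2(FPKM + 1) and log2(FPKM + 0.1), and 34 to 305 when single libraries were left out, with 1 member (Mlxip) under DESeq2 and 0 to 1 when libraries were left out. The stimulation effect called 7 members with only the 4 libraries of both states and 3 to 7 when libraries were left out, and 5967 genes, 3794 to 7575 when libraries were left out (lowest without the KO stimulated library). The iTreg effect called 3 to 7 members and 4056 to 6541 genes (6130 in all libraries, lowest without the KO resting library), and stimulated against iTreg 0 to 3 members and 1299 to 3154 genes (1854 in all, highest without the WT iTreg library). With the length trend removed, 1 member was 2-fold apart in iTreg cells, Mlx turned to -0.049 in the shared genotype effect, Mlxip to -0.062 in stimulated against iTreg cells and Mxd4 to -0.063 between the iTreg genotypes. With no covariate the shared Myc value was 0.28. With limma the shared Foxp3 value was -0.0022 and -0.0023, Mxd1 after stimulation -0.032 and -0.032, and Mga in iTreg cells -0.055 and -0.077, and with only 4 libraries Mga was -0.0016. When libraries were left out, shared genotype values turned sign for Mlx (-0.047 to 0.12), Mxd3 (-0.035 to 0.37), Myc (-0.24 to 0.42), Mxd4 (-0.022 to 0.43) and Foxp3 (-0.0024 to 0.045), stimulation values for Mxd1 (-0.16 to 0.28) and Mlxip (-0.42 to 0.19), iTreg values for Mlxip (-0.51 to 0.16) and Mga (-0.59 to 0.59), and stimulated against iTreg values for Mxd3 (-0.47 to 0.25), Mxd4 (-0.68 to 0.10), Mlxip (-0.24 to 0.40), Mga (-0.21 to 0.97) and Mlx (-0.049 to 0.27). None of the tested values that turned sign had passed with all 6 libraries.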

Other observations

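The 3 genes whose log2 normalised CPM ran most like that of Mlxip over the 6 libraries, among 5909 genes with a mean log2 CPM over 5, were 6820431F20Rik (Pearson r 0.994), Zfp970 (0.963) and Slc25a36, a mitochondrial pyrimidine nucleotide carrier (0.961), and 21 genes had an r over 0.9. 6820431F20Rik had 412, 334 and 465 normalised CPM in KO stimulated, iTreg and resting cells, against 595, 642 and 546 in WT cells, so every KO library lay under every WT library, as for Mlxip. The genes most like Myc were Ttc27 (0.999), Lta, the cytokine lymphotoxin alpha (0.998), and Rpl14-ps1 (0.995), a pseudogene whose counts may be shared with its parent, and 641 genes had an r over 0.9. Lta had 380.0, 738 and 29.4 normalised CPM in KO stimulated, iTreg and resting cells, against 218, 393 and 72.7 in WT cells, the same order of genotypes as Myc in each state. These correlations describe 6 libraries that share a model of 3 states, with no test. The genes were picked for their likeness over these same libraries, so a shared order of genotypes follows from that choice and is no separate result.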
